A study of Mus musculus with 36 samples.

Results

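The Nr4a family holds 3 genes, Nr4a1, Nr4a2 and Nr4a3, and their rows were taken by gene symbol from count files that list 55470 gene identifiers each. All 3 had a row in each of the 36 libraries and passed the low-count filter that left 11341 genes for testing. The libraries hold RNA bound to ribosomes of mouse cortex, pulled down through an HA tag on the ribosomal protein Rpl22. Every group carried the tag and its driver, HA-Rpl22(f/+);Camk2a-Cre(+/-), on a C57BL6JL background, so the tag is set by where Camk2a-Cre acts, mainly in excitatory pyramidal neurons. One protocol field writes the tag as HA-Rpl22(f/f), in place of HA-Rpl22(f/+) in the genotype field. The Shank3 groups also carried 1 mutated copy, Shank3(∆C/+), of the gene for a postsynaptic scaffold protein, and their controls were Shank3(+/+) littermates, called WT.

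Cohort 1 held 5 Shank3 and 6 WT libraries from mice taken 1 h after a forced swim, and 3 Shank3 and 3 WT libraries from naive mice left in the home cage. Cohort 2 held 6 Shank3 and 5 WT libraries from 4 h after the swim, and 4 Shank3 and 4 WT libraries from naive mice. The water was at 25 °C, and the labels give the swim as 5 min in the treatment field and 6 min in the protocol. Age and sex were not given in the sources used here. The question addressed was whether the response to swim stress differs in Shank3(∆C/+) mice. Each swim group was compared with the naive mice of its own cohort, so the time after the swim and the cohort cannot be told apart.

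The NR4A proteins are orphan nuclear receptors, transcription factors with the fold of hormone receptors but without a known hormone that controls them in the usual way. They bind DNA as monomers at a sequence called NBRE, or as dimers, and their activity depends largely on how much protein is made. In neurons the genes are immediate early genes: calcium and cAMP signals act through the factor CREB, bound at the cAMP response element (CRE), and switch them on within minutes. Nr4a1 (Nur77) is best known for its rapid induction by activity and stress. Nr4a2 (Nurr1) is needed for midbrain dopamine neurons and also marks claustrum and deep-layer cortical neurons. Nr4a3 (Nor1) is the third member, and in mouse hippocampus NR4A function has been linked to long-term memory.

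The stretches of DNA before the start sites are printed because they carry a feature that all 3 genes share and few other genes have. They come from the RefSeq promoter table of the GRCm38.p6 build, 5′ to 3′ on the strand of the gene, and capitals mark TGACG, the core of the CRE, on either strand (CGTCA is the same motif on the other strand).
Nr4a1, chr15:101266596-101266845, plus strand: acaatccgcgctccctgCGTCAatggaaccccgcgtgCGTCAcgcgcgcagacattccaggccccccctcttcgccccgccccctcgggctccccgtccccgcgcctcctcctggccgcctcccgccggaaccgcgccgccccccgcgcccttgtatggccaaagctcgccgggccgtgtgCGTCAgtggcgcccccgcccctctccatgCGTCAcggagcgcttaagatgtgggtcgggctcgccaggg
Nr4a2, chr2:57124004-57124253, minus strand: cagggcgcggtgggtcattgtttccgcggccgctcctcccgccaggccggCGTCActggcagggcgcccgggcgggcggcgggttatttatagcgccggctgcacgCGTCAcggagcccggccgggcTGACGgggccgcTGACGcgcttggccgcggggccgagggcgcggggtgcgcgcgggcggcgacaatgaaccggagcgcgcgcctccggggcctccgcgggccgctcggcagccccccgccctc
Nr4a3, chr4:48045055-48045152, plus strand: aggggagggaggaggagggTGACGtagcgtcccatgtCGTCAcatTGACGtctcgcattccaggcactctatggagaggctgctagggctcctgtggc

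The core TGACG was found 4 times in the 250 bases before each of the 3 start sites. Of 32851 promoters of that length in the table, 17.8% hold it at least once and 0.137% (45 promoters) hold it 4 times or more. For Nr4a3 the GENCODE annotation begins the first exon inside the RefSeq stretch, so 98 bases with 3 of its 4 cores are printed. The Nr4a1 stretch lies inside the longer gene that GENCODE draws, before the RefSeq start. The full palindrome TGACGTCA was not in any of these 3 stretches, and it is in 1.55% of promoters. The NBRE letters AAAGGTCA (1.34% of promoters) and the serum response element (1.47%) were not in them either. TATAAA, the TATA box letters, was found in Nr4a2 alone, once and on the opposite strand, against 12.4% of promoters that hold it on either strand. The GC content of the 250 bases was 74.4% for Nr4a1, 80% for Nr4a2 and 63.6% for Nr4a3. All matches are descriptions of the letters and do not show that a factor was bound.

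**Figure D1:**
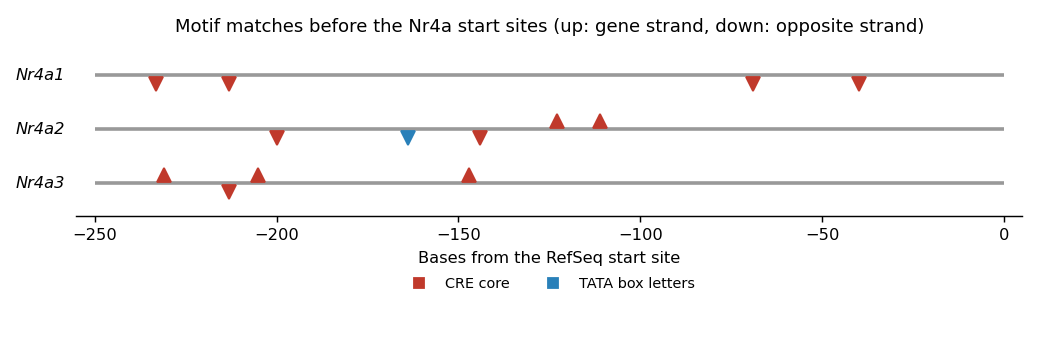
Places of motif matches in the 250 bases before the RefSeq start site of each gene, in bases from the start. Each line carries 4 CRE cores (red), and Nr4a2 has the only TATA box letters (blue); triangles pointing up are on the gene's strand and triangles pointing down are on the opposite strand.

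The genes lie on different chromosomes of mm10. Nr4a1 (ENSMUSG00000023034) spans chr15:101254269-101274795 on the plus strand, 11.7 Mb beyond the end of Shank3 on the same chromosome. Nr4a2 (ENSMUSG00000026826) spans chr2:57106830-57124003 on the minus strand, and Nr4a3 (ENSMUSG00000028341) spans chr4:48045153-48086447 on the plus strand. The rows hold few counts: 1144 for Nr4a1, 954 for Nr4a2 and 810 for Nr4a3 over all libraries. Counts per library ran from 0 to 253, from 0 to 152 and from 1 to 110 for these genes in that order. Their mean log2 levels lay above those of 48.0%, 42.1% and 40.6% of the genes tested.

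Libraries held 0.884 to 3.52 M counts. They also differed in how counts were split between strands: where an antisense row and a coding row overlap by exons, 10.7% to 33.1% of the counts of such pairs lay on the coding rows, a measure called the pair share here. It averaged 14.0 ± 1.81% (SD, n = 5) in Shank3 and 14.4 ± 2.09% (n = 6) in WT libraries at 1 h, and 11.3 ± 0.568% and 10.8 ± 0.182% (n = 3 each) in their naive mice. At 4 h it was 25.5 ± 7.23% (n = 6) in Shank3 and 23.2 ± 5.31% (n = 5) in WT libraries, with 13.1 ± 1.48% and 13.2 ± 1.402% (n = 4 each) in naive mice. No annotated gene lies opposite any Nr4a gene, and such genes as a class (4901 of those tested) rose in median with the swim. The pyramidal markers Slc17a7, Camk2a, Neurod2, Neurod6 and Tbr1 had counts in every library, and the endothelial marker Cldn5 had 0 counts in all 36. The Shank3 row, which does not single out the altered part of the gene, averaged 11.01 to 22.2 CPM over the 4 Shank3 groups and 6.27 to 12.2 CPM over the 4 WT groups. Levels below are CPM (counts per 1 M counts) scaled by TMM, which sets libraries to a common level through the bulk of genes. In bulk pulldowns fewer cells of a type and less RNA per cell cannot be told apart.

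At 1 h after the swim, Nr4a1 and Nr4a3 rose in both genotypes, and Nr4a2 rose in WT mice. Nr4a1 had the largest fold change of the 3 genes, 3.06 ± 0.672 (log2 ± SE) in Shank3 and 3.17 ± 0.659 in WT mice. Nr4a3 rose by 1.97 ± 0.433 and 2.01 ± 0.494. Nr4a2 rose by 1.91 ± 0.674 in WT mice, and in Shank3 mice its change of 1.53 ± 0.670 did not pass.

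Nr4a1 had 18.1, 13.7, 17.5, 20.9 and 12.5 CPM in the 5 Shank3 libraries at 1 h, against 1.01, 2.32 and 2.53 CPM in naive Shank3 mice. In the 6 WT libraries at 1 h it ran from 10.1 through a median of 21.99 to 31.1 CPM, against 0, 3.45 and 3.14 CPM in naive WT mice. The groups did not overlap in either genotype, and every swim library was well above every naive one. The naive values rest on 5 counts in each genotype, and 135 counts stood against 5 in Shank3 and 194 against 5 in WT mice. Scaled for library size, these sums gave ratios of 8.58 (exact 95% interval 3.59 to 26.9) in Shank3 and 9.33 (3.93 to 29.1) in WT mice, and the intervals cover counting error only. By edgeR's quasi-likelihood test with Benjamini-Hochberg adjustment, Nr4a1 had an adjusted p of 0.00758 in Shank3 and 0.00116 in WT mice. Without Shank3 naive replicate 2 the adjusted p of Nr4a1 in Shank3 mice was 0.0608.

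Nr4a3 had 15.0, 17.6, 12.4, 17.4 and 21.1 CPM in the Shank3 libraries at 1 h, against 1.01, 6.97 and 5.06 CPM in naive Shank3 mice. In WT libraries at 1 h it ran from 4.17 through a median of 14.5 to 20.0 CPM, against 1.73, 4.602 and 3.14 CPM in naive WT mice. The Shank3 groups did not overlap. In WT mice 5 of 6 swim libraries lay above all naive ones, and replicate 6 was within their range. The adjusted p of Nr4a3 was 0.00758 in Shank3 and 0.00349 in WT mice.

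Nr4a2 had the smallest fold change of the family at 1 h. It had 6.86, 10.4, 11.03, 4.36 and 5.42 CPM in Shank3 libraries at 1 h, against 2.02, 2.32 and 3.80 CPM in naive Shank3 mice. In WT libraries at 1 h it ran from 3.78 through a median of 9.09 to 18.2 CPM, against 3.46, 3.45 and 1.57 CPM in naive WT mice. The ranges were separate in both genotypes but close, since the lowest swim library was just above the highest naive one. Its adjusted p was 0.111 in Shank3 and 0.0272 in WT mice. The WT call was lost without any 1 of WT naive replicates 1, 2 or 3 or WT 1 h replicates 2 or 4, with adjusted p from 0.0518 to 0.114.

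Of the genes tested, 4.99% passed as higher at 1 h in Shank3 mice and 16.9% in WT mice. Among genes with nothing opposite the shares were 5.28% and 21.5%, and their median log2 fold changes were 0.30 and 0.57. The pair share moved with these responses. In each genotype it was higher in every 1 h library than in every naive library of cohort 1. The lowest 1 h and highest naive values were 12.6% and 11.9% in Shank3 mice, and 11.4% and 11.015% in WT mice. A model with both the swim and the pair share therefore cannot fully tell their effects apart at 1 h. With the pair share as a covariate, 5.41% of genes in Shank3 and 12.5% in WT mice passed as higher. Nr4a1 then changed by 2.70 in Shank3 (adjusted p = 0.00802) and 2.65 in WT mice (adjusted p = 0.00610), and Nr4a3 by 1.92 in each (adjusted p = 0.00198 in Shank3 and 0.00661 in WT), all by edgeR. Nr4a2 changed by 1.12 (adjusted p = 0.204) and 1.33 (adjusted p = 0.110) in that fit. When libraries were scaled by genes with nothing opposite alone, 1.91% and 6.99% of genes passed as higher, and Nr4a1 and Nr4a3 passed in both genotypes, with edgeR adjusted p from 0.00357 to 0.0260. Nr4a2 in WT mice did not pass there (1.52, adjusted p = 0.0653).

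**Figure D2:**
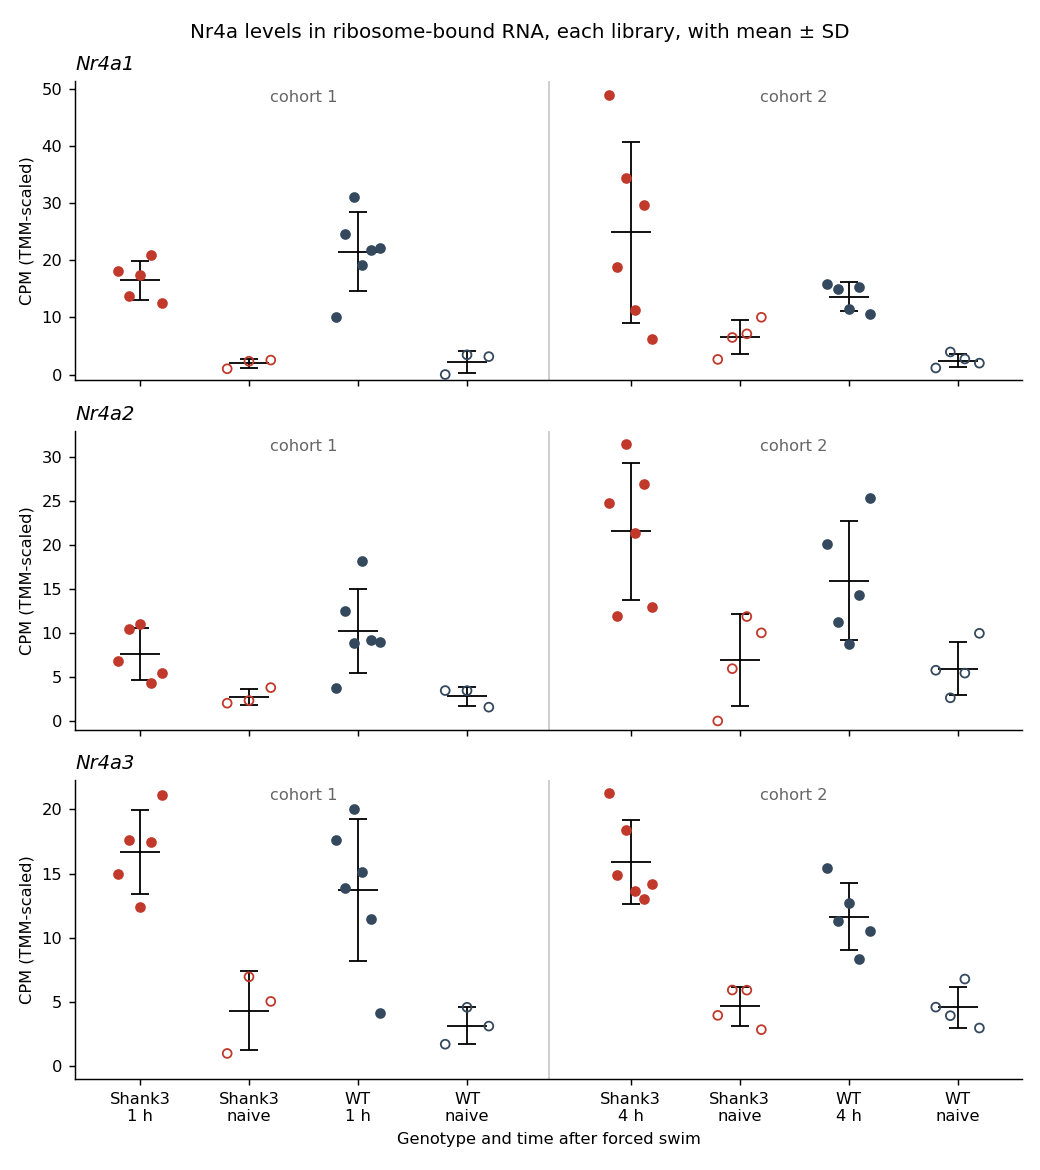
CPM (TMM-scaled) of Nr4a1, Nr4a2 and Nr4a3 in each of 36 libraries, by genotype, time and cohort, with points for libraries, long bars for means and whiskers for SD; filled points are swim mice and open points naive mice. Naive libraries stay at or under 11.9 CPM, and the 6 Shank3 libraries at 4 h spread from 6.18 to 48.9 CPM for Nr4a1.

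At 4 h after the swim all 3 genes were higher than in naive mice of cohort 2, in both genotypes. In Shank3 mice Nr4a1 rose by 1.98 ± 0.416 (log2 ± SE), Nr4a2 by 1.68 ± 0.412 and Nr4a3 by 1.68 ± 0.347. In WT mice Nr4a1 rose by 2.43 ± 0.543, Nr4a2 by 1.41 ± 0.432 and Nr4a3 by 1.25 ± 0.363. All of these calls were made at a time when the pair share was also far above naive, and with that share in the model none of the 6 was kept. The pair share ran from 17.0% to 33.1% at 4 h and from 11.7% to 15.0% in naive mice of cohort 2, without overlap. As at 1 h, a model with both therefore cannot fully tell a swim effect from a shift in the pair share.

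Nr4a1 at 4 h in Shank3 mice was the most spread of the 3 genes at that time, at 48.9, 18.7, 34.4, 11.3, 29.7 and 6.18 CPM in replicates 1 to 6. The naive Shank3 mice of cohort 2 had 2.65, 6.49, 7.12 and 10.0 CPM. In WT mice Nr4a1 had 15.9, 15.1, 11.4, 15.3 and 10.5 CPM at 4 h, against 1.15, 3.95, 2.72 and 1.99 CPM in naive mice. The WT groups were far apart, while in Shank3 mice replicate 6 fell among the naive values and the other 5 lay above them. The edgeR adjusted p was 0.000129 in Shank3 and 0.000349 in WT mice. Counts of 560 against 27 gave a ratio of 4.62 (exact 95% interval 3.14 to 7.07) in Shank3, and 208 against 10 gave 5.27 (2.81 to 11.1) in WT mice.

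Nr4a2 had 24.8, 11.9, 31.4, 21.3, 26.9 and 13.0 CPM in Shank3 mice at 4 h, against 0, 5.95, 11.9 and 10.0 CPM in naive ones. In WT mice it had 20.1, 11.3, 8.80, 14.3 and 25.4 CPM at 4 h, against 5.77, 2.63, 5.44 and 9.97 CPM in naive ones. The Shank3 groups were separate by a small margin (11.93 against 11.87 CPM), and in WT mice 4 of 5 swim libraries were above all naive ones. The edgeR adjusted p was 0.000713 in Shank3 and 0.00615 in WT mice.

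Nr4a3 had the tightest values of the family at 4 h in Shank3 mice, at 21.3, 14.9, 18.4, 13.7, 13.0 and 14.2 CPM, against 3.97, 5.95, 5.94 and 2.86 CPM in naive ones. In WT mice it had 15.4, 11.3, 12.7, 8.36 and 10.5 CPM at 4 h, against 4.62, 3.95, 6.80 and 2.99 CPM in naive ones. No swim library overlapped the naive range in either genotype. The edgeR adjusted p was 9.85e-05 in Shank3 and 0.00401 in WT mice.

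These calls stand beside a wide general shift at 4 h. Of the genes tested, 32.7% passed as higher in Shank3 and 29% in WT mice, and among genes with nothing opposite 44.8% and 38.4%, with medians of 0.62 and 0.57. With the pair share as a covariate, 0.362% and 4.09% of genes passed as higher. In that fit Nr4a1 changed by 0.85 (adjusted p = 0.476) in Shank3 and 1.47 (adjusted p = 0.146) in WT mice, and Nr4a2 by 0.41 (adjusted p = 0.709) and 0.30 (adjusted p = 0.721), by edgeR. Nr4a3 changed by 1.51 (edgeR unadjusted p = 0.000677, adjusted p = 0.0731) and 1.08 (unadjusted p = 0.0126, adjusted p = 0.101), close to its values without the covariate. Scaled by genes with nothing opposite, 15.6% and 13.1% of genes passed as higher, and Nr4a1, Nr4a2 and Nr4a3 kept their calls except Nr4a3 in WT mice (0.81, adjusted p = 0.0705). That scaling moved the median of all genes from 0.24 to -0.14 in WT mice at 1 h, and changed the calls there to 793 higher and 2627 lower, from 1917 higher and 1962 lower.

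**Figure D3:**
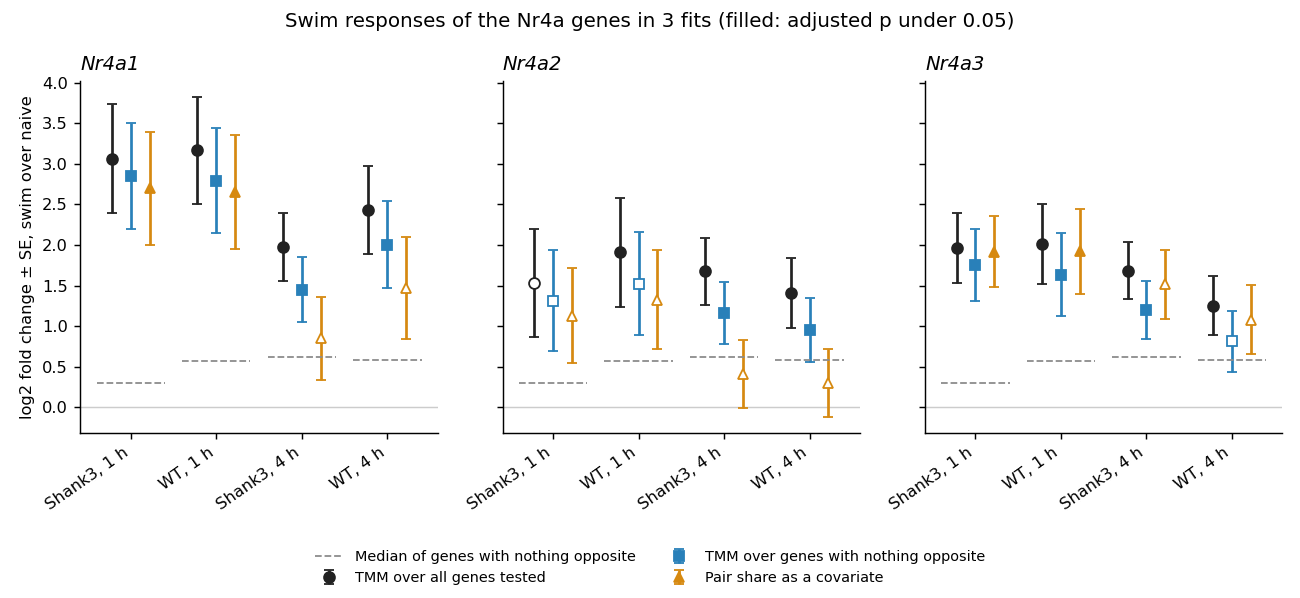
Log2 fold change ± SE of swim over naive mice for each gene, genotype and time, in the fit with TMM over all genes (black), TMM over genes with nothing opposite (blue) and the pair share as a covariate (orange). Filled symbols passed an adjusted p of 0.05. Dashed lines are medians of genes with nothing opposite in the black fit alone. Those medians were lower in the blue and orange fits, at 0.12 in both for WT mice at 4 h against 0.57 drawn. At 1 h Nr4a1 and Nr4a3 are filled in all 3 fits, and at 4 h all orange symbols are open.

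The order of the mean levels differed between members. For Nr4a1 it was Shank3 at 4 h (24.9 ± 15.9 CPM, n = 6), WT at 1 h (21.5 ± 6.91, n = 6), Shank3 at 1 h (16.5 ± 3.43, n = 5), WT at 4 h (13.6 ± 2.48, n = 5), then naive Shank3 of cohort 2 (6.57 ± 3.03, n = 4), with the other naive groups between 1.96 and 2.45. For Nr4a2 the 4 h groups were on top, 21.6 ± 7.79 CPM in Shank3 and 15.97 ± 6.74 in WT mice, above 10.3 ± 4.78 in WT and 7.62 ± 2.98 in Shank3 mice at 1 h. For Nr4a3 the 4 swim groups were close, from 11.7 ± 2.63 CPM in WT mice at 4 h to 16.7 ± 3.26 in Shank3 mice at 1 h. Between neighbours in these orders the libraries overlapped everywhere except between WT at 4 h and naive Shank3 of cohort 2, for Nr4a1 and for Nr4a3. Per kilobase of exon, Shank3 mice at 4 h had 7.09 CPM per kb of Nr4a1, 5.31 of Nr4a2 and 2.66 of Nr4a3, and for Nr4a3 Shank3 mice at 1 h were at 2.79 CPM per kb.

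The swim responses at 4 h and 1 h were compared within a single model. The 4 h response minus the 1 h response was -0.91 ± 0.683 for Nr4a1, -0.18 ± 0.572 for Nr4a2 and -0.52 ± 0.446 for Nr4a3 (log2 ± SE). None passed (edgeR adjusted p = 0.384, 0.868 and 0.456), while 12.4% of all genes did. The naive mice of cohort 2 against those of cohort 1 gave 0.89 ± 0.648, 1.20 ± 0.540 and 0.38 ± 0.411, again with no member passing (edgeR adjusted p = 0.348, 0.125 and 0.544) and 10.7% of all genes passing.

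Between genotypes no Nr4a gene passed the test at any time, by edgeR. In naive mice Shank3 over WT was 0.54 ± 0.676 (log2 ± SE) for Nr4a1, 0.03 ± 0.592 for Nr4a2 and 0.19 ± 0.415 for Nr4a3, with 0.00882% of all genes passing. The naive Nr4a1 values differed between cohorts: 5 counts stood against 5 in cohort 1 and 27 against 10 in cohort 2, where 3 of 4 Shank3 libraries were above all WT ones. Of these 3, replicates 6 and 7 had 13.5% and 38.6% of their counts on a single ribosomal RNA row, against at most 6.41% in any other naive library of either cohort. Without all libraries over 10% on such a row the naive difference of Nr4a1 was 0.37 (edgeR adjusted p = 0.990). The cohort 2 counts gave a ratio of 2.67 (exact 95% interval 1.25 to 6.18, counting error only).

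At 1 h Shank3 over WT was -0.42 ± 0.319 for Nr4a1, -0.49 ± 0.368 for Nr4a2 and 0.29 ± 0.257 for Nr4a3. The percent of genes called there was 0, with 205 genes under an unadjusted p of 0.05, and limma and DESeq2 also called 0. The libraries of the genotypes overlapped for all 3 genes.

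At 4 h Nr4a1 was 0.94 ± 0.290 higher in Shank3 than in WT mice (unadjusted p = 0.00227), Nr4a3 0.48 ± 0.232 (unadjusted p = 0.0454) and Nr4a2 0.43 ± 0.283 (unadjusted p = 0.132), and all had an edgeR adjusted p of 1.00. Only 0.00882% of genes (1 gene) passed. The Nr4a1 values followed the pair share among the Shank3 libraries. Replicates 1, 3 and 5, with pair shares of 33.1%, 32.7% and 30.1%, had 48.9, 34.4 and 29.7 CPM, and replicates 2, 4 and 6, with 17.5%, 21.8% and 18.2%, had 18.7, 11.3 and 6.18 CPM. Among WT libraries at 4 h, replicate 5 had a pair share of 31.6% and 10.5 CPM of Nr4a1, the lowest of its group. With the pair share as a covariate the difference in Nr4a1 was 0.75 ± 0.247 (edgeR, unadjusted p = 0.00414, adjusted p = 1.00). Without the 4 libraries with a pair share over 30%, a setting chosen after the values were seen, it was -0.22, and the Shank3 response of Nr4a1 at 4 h was 0.92 (edgeR adjusted p = 0.0470), so the size of both rests on these libraries. With limma's sample quality weights Nr4a1 (1.11, adjusted p = 0.00279) and Nr4a2 (0.89, adjusted p = 0.00934) passed at 4 h, in a fit that called 24.6% of all genes.

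Whether the response itself differed between genotypes was tested as an interaction. At 1 h the Shank3 response minus the WT response was -0.10 ± 1.32 for Nr4a1, -0.38 ± 1.08 for Nr4a2 and -0.04 ± 0.672 for Nr4a3. At 4 h it was -0.45 ± 0.731, 0.27 ± 0.629 and 0.43 ± 0.532. All adjusted p were 1.00 by edgeR. These errors are rough where the difference is near 0, as for Nr4a1 and Nr4a3 at 1 h. As they stand, they leave room for a difference of more than 1 log2 unit at either time. The percent of genes called was 0 at both times, with 468 and 302 genes under an unadjusted p of 0.05. limma called 1 gene at each time, and DESeq2 called 0 at 1 h and 1 at 4 h.

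**Figure D4:**
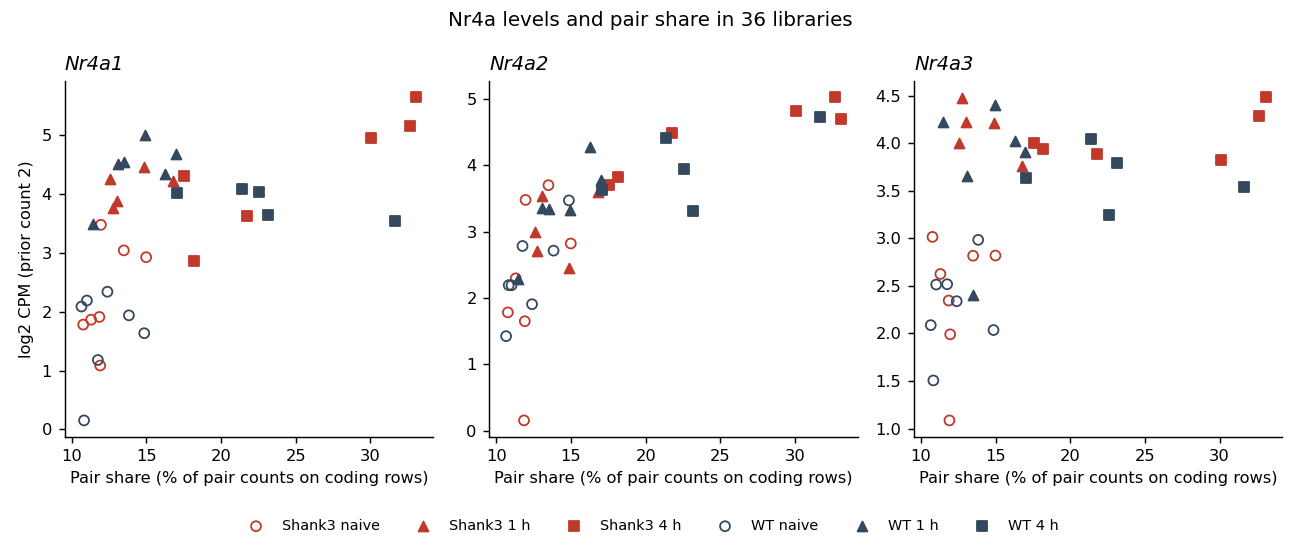
Log2 CPM of each gene (prior count 2) against the pair share in percent, 36 libraries, by genotype (color) and time (symbol). Nr4a2 follows the pair share most closely (r = 0.81). For Nr4a1 the triangles of the 1 h mice stand above all naive circles, the lowest by a narrow margin (3.483 against 3.477). For Nr4a3 they do so except in WT replicate 6 (2.40), which lies among the naive circles.

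The balance among the members was compared within libraries, which leaves out library scaling. At 1 h the log2 ratio of Nr4a1 over Nr4a2 counts was 1.14 ± 0.688 (SD, n = 5) in Shank3 swim mice, against -0.41 ± 0.375 (n = 3) in naive ones. In WT mice it was 1.09 ± 0.562 (n = 6) at 1 h, against -0.53 ± 1.60 (n = 3) in naive ones. The naive ratios of cohort 1 rest on 0 to 3 counts per gene and library, so the 0.5 added to each count weighs on them. In exact permutation tests (two-sided, difference of means) the raw p were 0.0357 in Shank3, the smallest that 5 against 3 libraries allow, and 0.0476 in WT mice. Over 12 such tests the adjusted p of both was 0.191 (exact permutation tests), so neither passed. With 5 against 3 libraries the Shank3 ratio could pass only if most of the 12 tests had p as small. Its failure to pass therefore says little. At 4 h the ratio of Nr4a1 over Nr4a2 was -0.01 ± 0.813 (n = 6) in Shank3 swim mice, against 0.44 ± 1.31 (n = 4) in naive ones. In WT mice it was -0.14 ± 0.692 (n = 5) at 4 h, against -1.09 ± 1.17 (n = 4) in naive ones. The log2 ratio of Nr4a1 over Nr4a3 was 1.05 higher in WT mice at 4 h than in naive ones. Its raw p was 0.0476 and its adjusted p 0.191 (exact permutation test). Per kilobase, Nr4a1 made up 49.9 ± 8.06% of the family's level in Shank3 and 55.4 ± 10.3% in WT mice at 1 h, against 28.9 ± 1.28% and 29.1 ± 25.9% in naive mice of cohort 1. At 4 h it made up 43.2 ± 13.4% in Shank3 and 40.6 ± 8.50% in WT mice, against 44.9 ± 8.32% and 24.8 ± 15.0% in naive mice of cohort 2. The share at 4 h in Shank3 mice was therefore no higher than in their naive mice.

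Across the 36 libraries the members ran together unevenly. Pearson's r of log2 CPM was 0.80 between Nr4a1 and Nr4a3, 0.68 between Nr4a1 and Nr4a2 and 0.57 between Nr4a2 and Nr4a3. After the mean of each genotype, time and cohort was taken out, r was 0.25, 0.36 and 0.02, so most of the likeness came from the groups. With the log2 pair share, r was 0.62 for Nr4a1, 0.81 for Nr4a2 and 0.53 for Nr4a3, and within groups 0.45, 0.52 and 0.06. These are descriptions over libraries that share depth, scaling and group.

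The genes most like each member, among 9386 with established symbols, differed between the members. For Nr4a1 they were Egr1 (r = 0.90), Fos (0.83), Bhlhe40 (0.82) and Arc (0.81), 4 of the closest 5, of which Egr1 and Fos are immediate early transcription factors and Arc is an activity-induced synaptic protein. For Nr4a3 they were Rsrp1 (0.85), Agps (0.82), Nr4a1 (0.80), Ahsa2 (0.79) and Fosb (0.79), the last an immediate early gene of the Fos family. For Nr4a2 they were Fto (0.90), Dazap2 (0.89), Pebp1 (0.89), Ap1b1 (0.89) and Stmn1 (0.89), and none of these is a classical immediate early gene. The genes like Nr4a2 had r from 0.85 to 0.90 with the log2 pair share, and those like Nr4a1 from 0.41 (Arc) to 0.82 (Bhlhe40). When group means were taken out first, Egr1 remained among the 5 genes closest to Nr4a1 (r = 0.68) and Fto among those closest to Nr4a2 (r = 0.78), while none of the 5 listed for Nr4a3 did.

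Of 18 other targets of CREB and of the serum response factor Srf, 15 were tested, and most did not pass at 1 h. At that time 3 rose and 0 fell in Shank3 mice, and 5 rose and 1 fell in WT mice. Over all genes tested 4.99% rose and 7.25% fell at 1 h in Shank3 mice, and 16.9% rose and 17.3% fell in WT mice. Their median log2 fold changes were 0.77 and 0.90, beside 0.09 and 0.24 for all genes tested. In both genotypes Fos rose (3.16 ± 0.552 in Shank3 and 3.26 ± 0.568 in WT mice), as did Egr1 (1.10 ± 0.311 and 1.71 ± 0.325) and Arc (2.29 ± 0.666 and 3.39 ± 0.766). Btg2, an antiproliferative early gene, rose in WT mice (3.73 ± 0.917), and Egr4 fell there (-1.01 ± 0.311). In Shank3 mice neither Btg2 (0.91 ± 0.558) nor Egr4 (-0.63 ± 0.319) passed. Shank3 over WT, Btg2 was at -0.15 ± 0.353 at 1 h and 1.87 ± 0.636 in naive mice, and neither passed. The interaction of Btg2 at 1 h (-2.82 ± 1.23) did not pass. At 4 h 10 rose and 2 fell in Shank3, and 9 and 1 in WT mice, with medians of 1.32 and 1.14 beside 0.22 and 0.23 for all genes. Over all genes 32.7% rose and 29.4% fell at 4 h in Shank3 mice, and 29% rose and 26.9% fell in WT mice. Egr3 rose by 2.08 ± 0.331 in Shank3 and 1.499 ± 0.331 in WT mice, and the clock gene Per1 by 2.85 ± 0.529 in Shank3 and 1.74 ± 0.542 in WT mice. Egr4 fell in both (-0.93 ± 0.294 and -1.30 ± 0.305). Egr3 also had a larger response at 4 h than at 1 h (1.59 ± 0.361, edgeR adjusted p = 0.00393) and Btg2 a smaller one (-2.96 ± 0.656, edgeR adjusted p = 0.00321).

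Genes upstream of Nr4a transcription, such as the CREB coactivators, Mef2 factors, protein kinase A subunits and class II deacetylases, gave 3 rising and 1 falling of 17 tested at 1 h in Shank3 mice, and 5 and 1 in WT mice. At 4 h the counts were 11 and 1 in Shank3 and 9 and 1 in WT mice. Of all genes 4.99% rose in Shank3 and 16.9% in WT mice at 1 h, and 32.7% and 29% at 4 h. The shares of all genes that fell were 7.25% and 17.3% at 1 h and 29.4% and 26.9% at 4 h. Of the 17, 10 have nothing opposite, and at 4 h 7 of these rose in Shank3 and 5 in WT mice. Of all genes with nothing opposite 44.8% and 38.4% rose at 4 h. The median log2 fold changes of the list were 0.30 and 0.33 at 1 h and 0.89 and 0.59 at 4 h. Prkacb, a catalytic subunit of protein kinase A, rose at 1 h (0.81 ± 0.277 in Shank3 and 1.51 ± 0.291 in WT mice) and at 4 h (1.25 ± 0.240 and 1.26 ± 0.246). Mef2c, of a factor family known to act on the Nr4a1 promoter in T cells, rose at 1 h by 0.67 ± 0.224 and 0.91 ± 0.224. Srf fell at both times, with log2 fold changes of -0.89 ± 0.261 in Shank3 and -0.85 ± 0.261 in WT mice at 1 h and -1.20 ± 0.236 and -0.83 ± 0.244 at 4 h. Crtc1, a CREB coactivator, rose at 4 h in both genotypes (2.37 ± 0.464 in Shank3 and 1.497 ± 0.443 in WT mice), as did the acetylase gene Crebbp (1.53 ± 0.366 and 1.85 ± 0.381).

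Of 45 other nuclear receptor genes 21 were tested, and they moved in both directions. At 1 h 1 rose and 4 fell in Shank3, against 2 and 7 in WT mice, and at 4 h 7 and 7 in Shank3, against 8 and 6 in WT mice. Of all genes 4.99% rose and 7.25% fell at 1 h in Shank3 mice, and 16.9% rose and 17.3% fell in WT mice. The 7 of 21 that rose at 4 h in Shank3 mice are about the 32.7% of all genes that did so, and the 7 that fell stand beside 29.4% of all genes, while in WT mice 29% of all genes rose and 26.9% fell. The 9 with nothing opposite had median log2 fold changes of 0.69 in Shank3 and 0.73 in WT mice at 1 h, against -0.09 and 0.47 for all 21. At 4 h these medians were 0.50 and 0.70, against 0.20 and 0.30. Values of genes in this and the other lists come from the fit without the pair share as a covariate. Pgr, the progesterone receptor, fell at 1 h (-1.04 ± 0.267 in Shank3 and -1.17 ± 0.256 in WT mice) and at 4 h (-1.46 ± 0.239 and -1.41 ± 0.250). Nr2f1, a cortical patterning factor, fell at 1 h (-0.75 ± 0.242 in Shank3 and -1.07 ± 0.237 in WT mice) and at 4 h (-1.40 ± 0.217 and -1.60 ± 0.224). The clock repressors split at 4 h: Nr1d1 fell (-1.63 ± 0.262 in Shank3 and -1.76 ± 0.277 in WT mice) and Nr1d2 rose (0.79 ± 0.217 and 1.10 ± 0.231). Nr3c1, the glucocorticoid receptor, rose in WT mice at 1 h (0.73 ± 0.265), and its value of 0.69 ± 0.255 in Shank3 mice did not pass.

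Among binding partners, kinases and coregulators of NR4A proteins, 13 of 15 were tested, and 4 of the 13 have nothing opposite. At 1 h 1 rose and 1 fell in Shank3, against 3 and 1 in WT mice, and at 4 h 7 and 1 in Shank3, against 6 and 1 in WT mice. Beside these counts stand the 4.99% and 16.9% of all genes that rose at 1 h in Shank3 and WT mice, and the 32.7% and 29% at 4 h. The shares of all genes that fell were 7.25% and 17.3% at 1 h and 29.4% and 26.9% at 4 h. The medians of the list were 0.46 and 0.44 at 1 h and 0.92 and 0.60 at 4 h. Rxrb, a retinoid X receptor, the class that pairs with Nr4a1 and Nr4a2, fell at 1 h (-0.89 ± 0.301 in Shank3 and -1.13 ± 0.306 in WT mice). Ncoa2, a coactivator of nuclear receptors, rose at 4 h (1.51 ± 0.281 in Shank3 and 1.88 ± 0.305 in WT mice).

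Chaperone genes of the endoplasmic reticulum have been reported as dependent on NR4A in mouse hippocampus. Of 8 such genes 5 were tested, and 0 rose or fell at 1 h in either genotype, while at 4 h 3 rose in Shank3 and 2 in WT mice. At 1 h 4.99% of all genes rose and 7.25% fell in Shank3 mice, and 16.9% and 17.3% in WT mice. With 5 genes, 0 is not far from those shares. Of all genes 32.7% and 29% rose at 4 h, and of genes with nothing opposite 44.8% and 38.4%. Thus 2 of 5 in WT mice is about the general share. In both genotypes the genes that rose at 4 h were among the 3 with nothing opposite. So few genes cannot set the 3 in Shank3 mice apart from the share of that class. Xbp1, a factor of the unfolded protein response, rose by 2.09 ± 0.333 in Shank3 and 2.42 ± 0.368 in WT mice, and Hyou1, a chaperone, by 1.32 ± 0.414 and 0.96 ± 0.419. Hspa5, the main chaperone of that compartment, rose in Shank3 mice at 4 h (0.64 ± 0.288), and its value of 0.40 ± 0.290 in WT mice did not pass. The 4 h response of Xbp1 was larger than the 1 h response by 2.02 ± 0.447 (edgeR adjusted p = 0.00320). No gene of any of these lists passed between genotypes or in the interactions by edgeR.

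Markers of other cells were set beside these results, since Nr4a2 marks claustrum and layer 6b neurons and NR4A genes also respond in microglia and vessel cells. The summed level of 7 claustrum and layer 6b markers had medians of 43.3 CPM in Shank3 and 50.1 CPM in WT mice at 1 h, against 47.7 and 54.9 CPM in naive mice. At 4 h the medians were 51.0 and 52.9 CPM, against 48.3 and 57.4 CPM in naive mice, and the ranges of swim and naive groups overlapped at both times and in both genotypes. Of the 7, Nxph4 was at 0 in 28 libraries. Most counts of this sum lay on Gnb4, Ccn2 and Lxn (1428, 770 and 387 counts), which have an annotated gene opposite. The claustrum sum was thus not limited to genes with nothing opposite, as the pyramidal sum below was, and the changes of these sums are not directly comparable. Oligodendrocyte markers summed to medians of 75.7 CPM in Shank3 and 69.6 CPM in WT mice at 4 h, against 38.3 and 39.3 CPM in naive mice. Astrocyte markers had 14.8 and 13.6 CPM, against 8.92 and 12.6 CPM. The 5 pyramidal markers named above, which have nothing opposite, summed to 2184 CPM in Shank3 and 1874 CPM in WT mice at 4 h, against 1195 and 1146 CPM in naive mice, and to 1154 and 1348 CPM at 1 h, against 1056 and 889 CPM. Of 6 interneuron markers the sum was 26.3 CPM in Shank3 and 15.9 CPM in WT mice at 4 h, against 14.0 and 8.91 CPM in naive mice, and 20.9 and 18.6 CPM at 1 h, against 12.8 and 8.05 CPM, with ranges that overlapped in each case. The sum of 5 microglial markers moved the other way, at 217 CPM in Shank3 and 268 CPM in WT mice at 4 h, against 681 and 676 CPM in naive mice, and at 537 and 532 CPM at 1 h, against 931 and 1042 CPM. At 4 h the swim and naive ranges of the pyramidal, oligodendrocyte and microglial sums were separate in both genotypes. At 1 h the ranges of the microglial sum were separate in both genotypes, and those of the pyramidal sum in WT mice alone. Nearly all of the microglial sum was Csf1r, which has an antisense partner by exons and 26695 counts over all libraries, while Cx3cr1, C1qa, Aif1 and P2ry12 had 21, 13, 41 and 2 counts. All endothelial markers together reached at most 1.74 CPM in any library. The part of these sums in the Nr4a values was not tested.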

How the data were processed

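Ribosome-bound RNA of mouse cortex was sequenced as 36 stranded TruSeq libraries, per the labels' protocols. Each deposited file gives 1 library as raw counts of reads by gene, in whole numbers. The submitters' processing notes name Trimmomatic 0.39, FastQC, HISAT2 2.2.0, StringTie 2.1.3, Salmon 1.4, DESeq2 and mm10. Which of them made the counts, and the strand setting, is not stated in these sources. Symbols were found for 55143 of 55470 identifiers, and rows without a symbol held 0.0412% of counts.

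Counts were tested in R 4.3.3 with edgeR 4.0.16 (TMM, low-count filter, robust quasi-likelihood test), with 8 groups of genotype, time and cohort and 28 residual degrees of freedom. p-values were adjusted by Benjamini-Hochberg over 11341 genes per comparison (11 in all), and called under 0.05. An SE was derived from each fold change and its F statistic, and it is rough where the fold change is near 0. Libraries are not tied to named animals, so p-values rest on the spread among libraries, which may be technical. In 68 pairs of libraries of a group chi-square per degree of freedom ran from 1.47 to 72.9, and all were kept as separate. Alternatives used limma 3.58.1, DESeq2 1.42.0, other scalings and filters, the pair share as a covariate, and libraries left out. Levels per kilobase use GENCODE vM21 exon lengths. The pair share had a Spearman rho of 0.98 with the TMM factors.

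The members and lists were chosen with earlier results of these data known. Named genes are the members, up to 4 genes of a list in each direction with the smallest p, and the 5 genes with the highest Pearson r to a member. A few list genes are not reported here. Ratios of members used counts plus 0.5. The tests were also run on simulated data.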

Additional observations from a re-analysis of the deposited data

How the results depend on the processing

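Of 330 values of a member in a comparison under another setting, 300 kept their direction and side of the threshold, and of 474 values with a library left out 447 did. With the pair share as a covariate the WT response of Nr4a2 at 1 h (1.33) and the 4 h responses of Nr4a1 (0.85 in Shank3, 1.47 in WT), Nr4a2 (0.41, 0.30) and Nr4a3 (1.51, 1.08) lost their calls. Scaling by genes with nothing opposite ended the calls of Nr4a2 in WT mice at 1 h (1.52) and Nr4a3 in WT mice at 4 h (0.81), limma that of Nr4a2 in WT mice at 1 h (1.64), and the replicate block, with 17 residual degrees of freedom, that of Nr4a3 in WT mice at 4 h (0.90). The cause was not tested. Replicate numbers did not pair libraries in general: the correlation of deviations had a median of -0.0016 in 39 same-numbered pairs and 0.0017 in 200 other pairs. It was over 0.1 in 10 of the 39 and reached 0.73, so a link within single pairs is not excluded. Shank3 over WT at 4 h passed for Nr4a1 (1.11) and Nr4a2 (0.89) with limma, and turned to -0.22 for Nr4a1 without libraries over a pair share of 30%, an added setting.

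Values not called that turned were the naive genotype difference of Nr4a2 (-0.0014 with RLE factors, -0.031 with the pair share, -0.036 with scaling by genes with nothing opposite, -0.36 without libraries high in ribosomal RNA, -0.059 with limma), the 1 h interaction of Nr4a1 (0.046 with the pair share, 0.059 with that scaling) and of Nr4a3 (0.010 with RLE factors, 0.15 with an additive cohort term, 0.12 with that scaling, 0.34 with limma, 0.010 with DESeq2), the 4 h minus 1 h response of Nr4a2 (0.13 with the replicate block, 0.19 without libraries high in ribosomal RNA, 0.23 with limma), the naive cohort difference of Nr4a3 (-0.15 with the replicate block) and the Shank3 4 h ratio of Nr4a1 over Nr4a3 (0.030 with 1 count added).

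With each library left out in turn, the WT 1 h response of Nr4a2 ran from 1.65 to 2.13 and the Shank3 1 h response of Nr4a1 from 2.73 to 3.29. The naive genotype difference ran from -0.14 to 0.20 for Nr4a2 and from -0.092 to 0.44 for Nr4a3, the 1 h interaction from -0.62 to 0.37 for Nr4a1 and from -0.55 to 0.52 for Nr4a3, and the 4 h interaction of Nr4a2 from -0.071 to 0.60. The ratio Nr4a1 over Nr4a3 in Shank3 mice at 4 h ran from -0.29 to 0.40, Nr4a1 over Nr4a2 from -0.82 to 0.18, Nr4a2 over Nr4a3 from -0.47 to 0.99, and Nr4a2 over Nr4a3 in WT mice from -0.57 to 0.16 at 1 h and from -0.15 to 0.54 at 4 h.

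With the pair share in the model the genes called fell by over 1.5 times in 3 of the 4 swim comparisons (60 in place of 7040 in Shank3 and 872 in place of 6350 in WT mice at 4 h, 2461 in place of 3879 in WT mice at 1 h). In Shank3 mice at 1 h 1388 were called, against 58 to 1672 with a library left out, 733 with scaling by genes with nothing opposite, 2905 with an additive cohort term, 2385 without high pair shares and 2877 with limma. Without high pair shares 4216 were called in Shank3 mice at 4 h. For 4 h minus 1 h the 1401 calls became 529 to 3645, and for naive cohorts the 1208 became 214 to 2798. In WT mice at 1 h a library left out gave 2325 to 4612, and for naive cohorts 179 to 1943. Genotype and interaction counts stayed between 0 and 7 apart from 2787 for 4 h genotype with limma. Scaling by genes with nothing opposite gave 217 higher and 516 lower calls in Shank3 mice at 1 h (566 and 822 before), 1767 and 4527 in Shank3 mice at 4 h (3711 and 3329) and 1489 and 4105 in WT mice at 4 h (3294 and 3056), and the pair share gave 41 and 19 in Shank3 mice at 4 h. Few counts in naive mice limit the fold changes of these genes over naive mice.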
